A study of Saccharomyces cerevisiae with 12 samples.

Results

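FIT2, FIT3 and ENB1 are budding yeast genes of siderophore iron uptake, and their RNA was compared on spotted arrays between deletion mutants of AFT1, or of AFT1 and AFT2 together, and wild-type strains. The members were the spots whose annotated gene symbol is exactly FIT2, FIT3 or ENB1. This gave 3 of 6912 spots, 1 per gene, and all 3 genes were among the 3127 singly named genes measured on all 6 slides. Each slide carried a mutant and its parent in separate channels. The strain Y18daft2, labelled aft1d aft2d, was set against wild-type CM3260. Cultures were taken at an optical density of 0.5 in YPD, a rich medium, or after 2 further hours in 200 mM hydroxyurea. BY4741 aft1d was set against wild-type BY4741 in hydroxyurea, under the same conditions. Each of these 3 comparisons had 2 slides, with the mutant in channel 1 on the first and in channel 2 on the second. BY4741 is a laboratory strain of the S288C background, and hydroxyurea inhibits ribonucleotide reductase. The labels do not say whether the slides of a comparison came from separate cultures. The spread between slides that p-values rest on, pooled as given below, may therefore be technical. They name no other allele of any strain and no clone number.

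Siderophores are small molecules that bind ferric iron tightly. Yeast makes none but takes up those of other microbes, first holding them at the cell wall with mannoproteins of the FIT family and then importing them with transporters of the ARN family. FIT2 and FIT3 encode such mannoproteins, which carry a GPI anchor, and ENB1, also called ARN4, encodes the plasma membrane transporter of enterobactin, a bacterial siderophore. Aft1 and Aft2 are transcription factors that enter the nucleus when iron is short and activate genes of this pathway.

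FIT3 was lower in the mutant than in its parent in all 3 comparisons, by 3.17-fold to 5.89-fold. ENB1 was lower in both hydroxyurea comparisons, by 4.74-fold and 2.57-fold, and was 2.19-fold below the parent in rich medium, where it narrowly missed the threshold. FIT2 ratios lay between 0.02 and 0.21 on the log2 scale and did not pass in any comparison. A ratio from a bulk culture cannot tell fewer cells with a transcript from less transcript per cell. Whether the FIT2 and FIT3 spots each bound only their own transcript was not tested.

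Each slide was read as 2 columns, taken from the French titles as a strong and a weak scan, which are repeat readings of 1 slide. The deposited log ratios are read as log2, since the base is not stated, and column medians ran from -0.53 to 0.85. The direction of the ratio is also not stated. It was called likely from the AFT1 spot on the aft1d slides, which read 2.41 (weak scan) and 4.05 (strong scan) with the mutant in channel 2 and -2.43 and -4.23 with it in channel 1. Signs of this kind follow from channel 1 over channel 2 where the deleted gene has little RNA. The members played no part in this choice. With the sign turned, FIT3 and ENB1 would be higher, not lower, in the mutants by the same amounts. AFT1 itself was 8.24-fold lower in aft1d, at -3.04 (SE 0.205, n = 2 slides). On the Y18daft2 slides AFT1 gave 0.25 and -0.30 (rich medium), then -0.06 and -0.29 (hydroxyurea). AFT2 gave -0.26 and 0.11, then -0.22 and -0.13. These spots thus did not show the deletions that the label of Y18daft2 gives, and it is not known whether they lie within the deleted stretches. Directions given for the strain labelled Y18daft2 rest on that label.

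The values as deposited already separate the members. With the mutant in channel 1, FIT3 read -1.75 and -2.42 (weak and strong scan) in rich medium, -1.45 and -1.35 in Y18daft2 in hydroxyurea, and -1.56 and -1.79 in aft1d. With the mutant in channel 2 it read 2.60 and 3.24, 1.40 and 1.98, and 1.82 and 2.92. The sign of FIT3 therefore followed the channel of the mutant in all 6 pairs of columns, and the reading opposed the mutant channel in 12 of 12 columns. Here and below, the 6 pairs are 3 exchanged pairs of slides, each read in 2 scans, and are not independent.

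ENB1 with the mutant in channel 1 read -0.85 and -0.74 in rich medium, -2.17 and -1.74 in Y18daft2 in hydroxyurea, and -1.36 and -1.54 in aft1d. In channel 2 it read 1.17 and 1.54, 2.05 and 2.81, and 1.27 and 2.44. Like FIT3, it changed sign with the channel in 6 of 6 pairs. FIT2 with the mutant in channel 1 read -0.42 and -1.42, -0.70 and -0.64, and -0.17 and -0.96. In channel 2 it read -0.42 and -0.64, -0.87 and -1, and -0.48 and -0.45. FIT2 was thus below 0 in 12 of 12 columns, whichever channel held the mutant, and changed sign in 0 of 6 pairs.

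**Figure D1:**
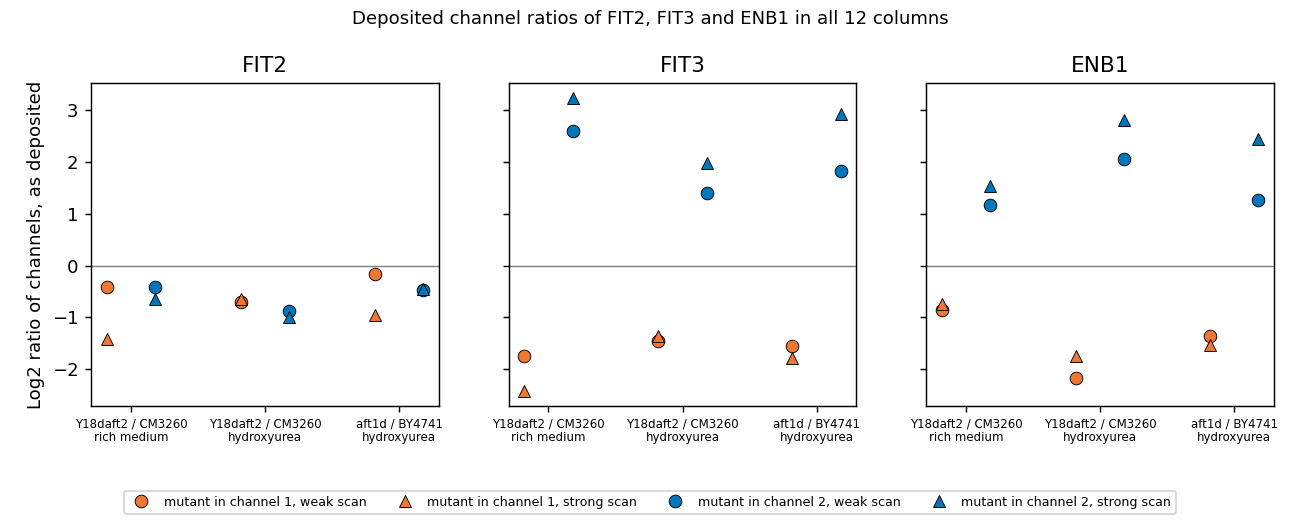
Log2 ratio of the channels as deposited (y axis) for FIT2, FIT3 and ENB1 in the 3 comparisons (x axis), with colour for the channel of the mutant and circles and triangles for weak and strong scans. FIT3 and ENB1 lie below 0 with the mutant in channel 1 and above 0 with it in channel 2, and FIT2 lies below 0 in all 12 columns, from -1.42 to -0.17.

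Splitting each pair of exchanged slides into a part that follows the mutant and a part that follows the channel gives the same picture in numbers. For FIT2 the part following the channel ran from -1.03 to -0.33 over the 6 pairs of columns, and the part following the mutant from -0.39 to 0.18. For FIT3 the part following the mutant ran from -2.83 to -1.43 and that following the channel from -0.03 to 0.57. For ENB1 these were -2.28 to -1.01 and -0.06 to 0.54. The channel part outweighed the mutant part for FIT2, and the reverse held for FIT3 and ENB1, in 6 of 6 pairs each.

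The columns share a trend in channel orientation, and FIT2 stands on the opposite side of it from FIT3 and ENB1. Across spots, which are not independent replicates, the slides of a comparison correlated as deposited at r = 0.55 in rich medium and 0.77 in Y18daft2 in hydroxyurea, but at 0.094 in aft1d. Across the 3127 genes, after trend removal and turning to mutant over wild type, r was 0.21, -0.27 and 0.38, so the Y18daft2 slides in hydroxyurea did not correlate positively. Ranked by the mean of the slides of the other comparisons, FIT2 lay at percentile 0.984, 1.74 and 4.21 of all spots, FIT3 between percentiles 79.4 and 91.8 and ENB1 between 77.1 and 82.6. Removing the trend took between -1.30 and -0.07 out of the FIT2 readings, between 0.06 and 1.03 out of those of FIT3 and between 0.06 and 0.66 out of those of ENB1. From here on each ratio is mutant over wild type on the log2 scale, median-centred, with this trend removed and the scans of a slide averaged. It is thus measured against genes close by on the trend. A gene passed at an adjusted p under 0.05 (limma with Benjamini-Hochberg over 3127 genes). SE, intervals and p-values use a spread that limma pooled over all 6 slides and drew toward that of all genes. They do not measure the spread of the 2 slides of a comparison.

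FIT3 was furthest below the parent in rich medium. In Y18daft2 it read -2.32 on the slide with the mutant in channel 1 and -2.80 on that with it in channel 2, the lowest of 3127 genes on both. The mean was -2.56 (SE 0.209, n = 2 slides), 5.89-fold lower than in CM3260, with adjusted p = 0.00374 (limma). It was 1 of 2 genes past the threshold in this comparison, 0.064% of those tested, the other being SED1. The ratio was -2.92 without the channel 1 slide and -2.19 without the other. A slide left alone in its comparison adds nothing to the spread estimate, so no member call is given for such fits. When the 12 columns were fitted singly, with slides as random blocks, the mean of -2.56 had adjusted p = 0.0533 (limma).

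In hydroxyurea FIT3 read -1.99 and -1.34 in Y18daft2, rank 2 and rank 4 from the lowest. The mean was -1.66 (SE 0.209, n = 2 slides), 3.17-fold lower (adjusted p = 0.0359, limma). In aft1d the slides gave -1.66 and -1.80, rank 2 on both behind AFT1. Their mean was -1.73 (SE 0.209, n = 2 slides), 3.32-fold lower (adjusted p = 0.0265, limma). The aft1d slides lay closer together than those of Y18daft2. Without the channel 1 slide FIT3 read -1.18 in Y18daft2 and -1.84 in aft1d, and without the other slide -2.14 and -1.62. Both calls ended with the strong scans alone, at -1.84 and -1.78 (adjusted p = 0.194 and 0.21, limma), and with slides as random blocks.

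ENB1 was lowest in Y18daft2 in hydroxyurea. It read -2.20 and -2.28 there, the lowest of 3127 genes on both slides, with a mean of -2.24 (SE 0.163, n = 2 slides). This was 4.74-fold lower than in CM3260 (adjusted p = 0.00142, limma). The genes past the threshold were 3, or 0.0959%, all lower: ENB1, FIT3 and AHA1, which encodes a co-chaperone of Hsp90. Without the channel 1 slide ENB1 read -2.25 and without the other -2.23, so the ratio moved little.

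In aft1d ENB1 read -1.44 and -1.29, rank 3 and rank 5 from the lowest, with a mean of -1.36 (SE 0.163, n = 2 slides). It was 2.57-fold lower than in BY4741 (adjusted p = 0.0265, limma). In this comparison 4 genes passed, 0.128%, of which AFT1, ENB1 and FIT3 were lower and IZH4 higher. Without the channel 1 slide ENB1 read -1.20 and without the other -1.52. With the strong scans alone it read -1.42 and did not pass (adjusted p = 0.21, limma).

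In rich medium ENB1 read -1.0 and -1.27 in Y18daft2, rank 16 and rank 4 from the lowest. The mean of -1.13 (SE 0.163, n = 2 slides) is 2.19-fold below CM3260. Its adjusted p of 0.0518 (limma) lies at the edge of the threshold, which it passed under 4 of 12 other treatments of the values. The ratio stayed between -1.28 and -0.98 when slides were left out.

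FIT2 read 0.03 and 0.00 in Y18daft2 in rich medium, 0.12 and 0.31 in hydroxyurea, and -0.28 and 0.37 in aft1d. The means were 0.02, 0.21 and 0.04 (SE 0.177, n = 2 slides each), and the slides of aft1d disagreed in sign. The 95% intervals ran from -0.39 to 0.42, from -0.19 to 0.62 and from -0.36 to 0.45. A change of 2-fold in the spot ratio lies outside each of them, and smaller changes within them were not detectable with 2 slides. The intervals use the pooled SE, while the aft1d slides alone had an SD of 0.46. Signal of the FIT2 spot over background is unknown, so the intervals set no limit on FIT2 RNA itself. The lowest adjusted p of FIT2 over the comparisons was 0.999 (limma).

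**Figure D2:**
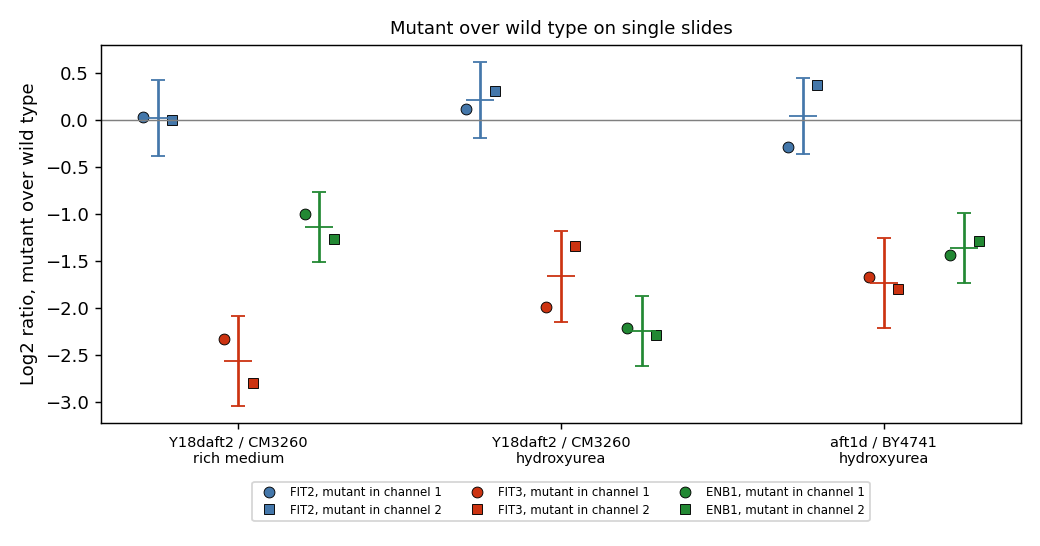
Log2 ratio of mutant over wild type (y axis) for FIT2, FIT3 and ENB1 in the 3 comparisons (x axis). Points are single slides, circles with the mutant in channel 1 and squares in channel 2, and bars give the mean of 2 slides with its 95% interval from limma. FIT3 and ENB1 lie at or below -1.0 on all 6 slides and FIT2 between -0.28 and 0.37.

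FIT3 and ENB1 were the 2 genes of 3127, 0.064%, that lay at least 2-fold below the parent on all 6 slides. ENB1 reached this level narrowly, its highest slide being -1.0, with the mutant in channel 1 in rich medium. On that slide ENB1 read -0.795 as deposited, -0.60 after centring alone and -0.82 in the weak scan with the trend removed, so that without the trend removal, or by the weak scan, it was not 2-fold lower on all 6 slides. The next gene by this count was YMR315W, with 4 slides, named here after its values were seen, and 0 genes had 5. Both were among 54 genes, 1.73%, below 0 on all 6 slides. By comparison 5 genes (0.16%) were at least 2-fold lower on both slides in rich medium, 3 (0.0959%) in Y18daft2 in hydroxyurea and 4 (0.128%) in aft1d. The members were chosen with such results known, so these counts describe them and test nothing.

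**Figure D3:**
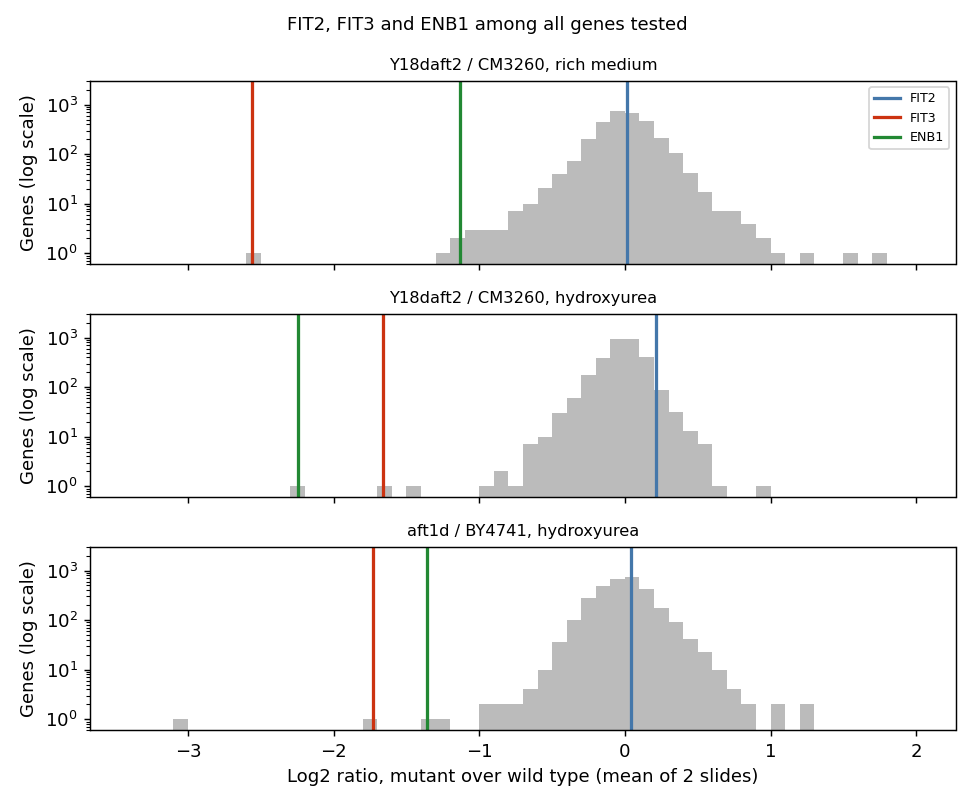
Number of genes (y axis, log scale) by log2 ratio of mutant over wild type (x axis, mean of 2 slides) for 3127 genes in each comparison, with lines at FIT2, FIT3 and ENB1. FIT3 and ENB1 lie in the lower tail in each comparison and FIT2 in the main body, and the gene at -3.04 in the aft1d panel is AFT1.

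The scans of a slide differed in size. After trend removal FIT3 was lower in the strong scan than in the weak scan on 6 of 6 slides, by 0.05 to 1.16, the widest gap being in rich medium with the mutant in channel 1 (-2.90 and -1.74). ENB1 was also lower in the strong scan on 6 of 6 slides, by 0.10 to 0.36. FIT2 differed between scans by at most 0.05 on the Y18daft2 slides. On the aft1d slides its scans were -0.50 (strong) and -0.06 (weak) with the mutant in channel 1, and 0.65 and 0.08 with it in channel 2. The disagreement of the aft1d slides over FIT2 thus came mainly from the strong scans.

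The Y18daft2 ratio in hydroxyurea was set against that in rich medium, a contrast called between media below. The hydroxyurea cultures were also taken 2 hours later, and no untreated culture of that time is in the series. Drug and time therefore cannot be told apart. For ENB1 the difference was -1.11 (SE 0.23, 95% interval -1.64 to -0.59). For FIT3 it had the opposite sign, at 0.90 (SE 0.296, 95% interval 0.22 to 1.57). The FIT3 difference depended on single slides. It was 1.37 without the hydroxyurea slide with the mutant in channel 1 and 0.42 without the other, and 1.26 and 0.53 without the respective slides of rich medium. FIT2 differed by 0.20 (95% interval -0.37 to 0.77). No difference passed over all genes, with adjusted p = 0.576 for ENB1 and 0.999 for FIT3 (limma). In this test 0 of 3127 genes passed (0%), while 107 had an unadjusted p under 0.05 in limma, and 23 passed when the trend was taken over all 6 slides, a setting added after seeing the data, ENB1 among them (adjusted p = 0.0135, limma).

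The strain pairs were compared within hydroxyurea. ENB1 lay 0.88 lower in Y18daft2 over CM3260 than in aft1d over BY4741 (SE 0.23, 95% interval -1.41 to -0.36, adjusted p = 0.999, limma). FIT3 differed by 0.07 (95% interval -0.61 to 0.74) and FIT2 by 0.17 (95% interval -0.40 to 0.74), so a difference of up to about 0.74 in either is within these data. The gene past the threshold in this contrast was AFT1, 1 of 3127 or 0.032%, at -0.17 in the strain labelled Y18daft2 and -3.04 in aft1d. The pairs differ in parent strain as well as in the deletions their labels give, and these cannot be told apart.

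The order of the members depended on the comparison. FIT3 minus ENB1 was -1.32 and -1.53 on the slides of rich medium, 0.22 and 0.95 on those of Y18daft2 in hydroxyurea, and -0.23 and -0.51 on those of aft1d. Over 6 slides this difference was -0.40 ± 0.93 (SD, n = 6). FIT3 minus FIT2 was -2.07 ± 0.50 (SD, n = 6) and ENB1 minus FIT2 was -1.67 ± 0.65, each below 0 on 6 of 6 slides. These differences between members were known when the members were chosen, so they are a description, with no test. The change of order between comparisons was not tested.

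The genes with the most similar profile were found by the root mean square difference over the 6 slides, as a description. For FIT3 the nearest of 3127 genes was ENB1, at a distance of 0.94, followed by LYS9, a saccharopine dehydrogenase of lysine synthesis, at 1.31 and PRM4, a gene induced by mating pheromone, at 1.33. For ENB1 the nearest were FIT3 at 0.94, LYS9 at 0.97 and AHA1 at 1.09. LYS9 lay below 0 on 6 of 6 slides, between -1.12 and -0.28. PRM4 lay between -1.37 and -0.77 on the Y18daft2 slides and between -0.05 and 0.11 on those of aft1d, and AHA1 at -1.50 and -1.45 in Y18daft2 in hydroxyurea and between -0.35 and 0.21 elsewhere. No gene came within 0.25 of FIT3 or of ENB1, whereas 455 genes lay within 0.25 of FIT2, the nearest being GAT4 at 0.13, SPR2 at 0.13 and PHS1 at 0.14.

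All 3 members lie on chromosome XV, FIT2 (YOR382W) and FIT3 (YOR383C) side by side on opposite strands near its right end and ENB1 (YOL158C) near its left end, by the gene order of RefSeq assembly R64. No genome build is stated for the array, so no coordinates are printed. FIT3 was the low gene of its neighbourhood. FIT2 next to it and FRE5 on its other side lay at 0.02 and 0.07 in rich medium, at 0.21 and 0.10 in Y18daft2 in hydroxyurea, and at 0.04 and 0.07 in aft1d. FRE3 and FRE5 encode ferric reductases or close relatives of them. FRE3 read 0.00, -0.26 and 0.13, RDR1, a transcription repressor, 0.07, 0.04 and -0.14, the uncharacterised YOR385W -0.32, -0.16 and 0.00, and PHR1, the DNA photolyase, 0.01, -0.05 and 0.01, in the same order of comparisons. Around ENB1, CSS3 read -0.17, 0.08 and -0.10, the isomaltase gene IMA2 -0.06, 0.08 and 0.13, and the hexose transporter gene HXT11 0.18, -0.05 and 0.32. Of these measured neighbours other than FIT3 and ENB1 themselves, 0 passed the threshold in any comparison. With 0.064% to 0.128% of all genes past it, this count is near the background and is no result about them.

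**Figure D4:**
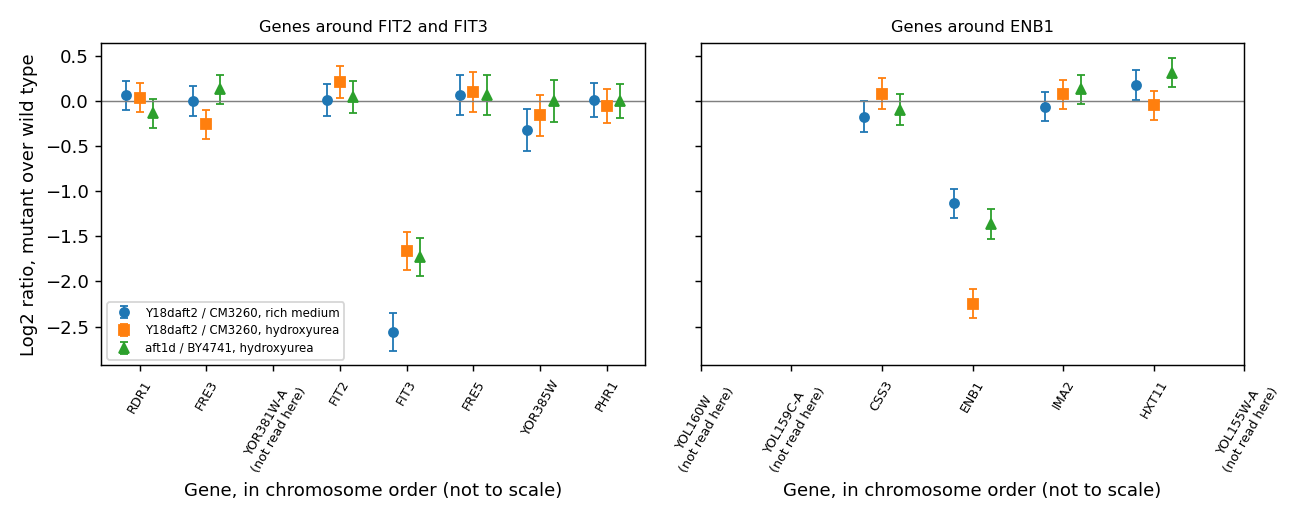
Log2 ratio of mutant over wild type (y axis, mean of 2 slides, bars SE from limma) for the genes next to FIT2 and FIT3 (left) and ENB1 (right) in chromosome order (x axis, not to scale), with symbols for the 3 comparisons. FIT3 and ENB1 lie below -1.1 in all 3, while the measured neighbours lie between -0.32 and 0.32.

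The rest of the pathway was taken from lists. Of the other siderophore genes FIT1, ARN1, ARN2 and SIT1, 0 of 4 were read here under those symbols. Of 10 genes of reductive iron uptake, the route that reduces ferric iron at the surface before import, 6 were measured and 0 passed in any comparison. ATX1, the copper chaperone that supplies the pathway's oxidase, was the lowest of them throughout, at -0.53 in rich medium, -0.51 in Y18daft2 in hydroxyurea and -0.28 in aft1d (SE 0.155; adjusted p = 0.534 or above, limma). The reductases FRE2, FRE3, FRE4, FRE5 and FRE6 lay between -0.12 and 0.07 in rich medium, between -0.43 and 0.13 in Y18daft2 in hydroxyurea, and between -0.19 and 0.26 in aft1d. The list medians were -0.05, -0.17 and -0.01, against 0.00, 0.00 and -0.01 over all genes.

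Of 11 other known Aft1 or Aft2 targets 7 were measured and 0 passed in any comparison. Their medians were -0.12 in rich medium, -0.28 in Y18daft2 in hydroxyurea and 0.22 in aft1d, with 5, 6 and 1 of 7 below 0, against 49.6%, 51.9% and 52.2% of all genes. With 0.064% to 0.128% of all genes past the threshold, a count of 0 among 7 genes, or among the 6 of reductive uptake, is near the background and is no result about either list. Examples named after their values were seen are SMF3, ISU2 and FTH1. SMF3, a vacuolar iron exporter, read -0.37, -0.82 and 0.68 in the same order (SE 0.251). ISU2, a scaffold for iron-sulfur cluster assembly, read 0.08, -0.28 and 0.55 (SE 0.168), and FTH1, a vacuolar iron transporter, read -0.29, -0.37 and 0.47 (SE 0.227). FIT3 and ENB1 thus lay below every other measured gene of these lists in each comparison. They came closest in rich medium, where ENB1 was at -1.13 and ATX1 at -0.53. FET3, FTR1, FRE1 and CCC2 of reductive uptake, and FET5, HMX1, ISU1 and FET4 of the other targets, were not measured.

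**Figure D5:**
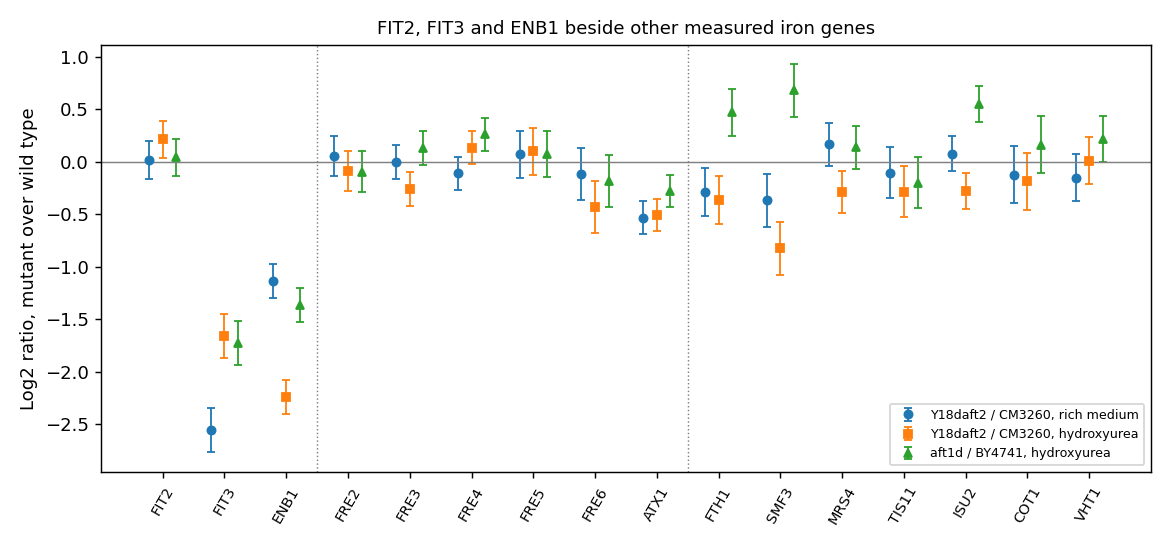
Log2 ratio of mutant over wild type (y axis, mean of 2 slides, bars SE from limma) for FIT2, FIT3 and ENB1, then 6 genes of reductive iron uptake and 7 other Aft targets (x axis, separated by dotted lines), with symbols for the 3 comparisons. FIT3 and ENB1 lie below -1.1 throughout, and the other genes lie between -0.82 and 0.68.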

How the data were processed

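The deposited table holds log ratios of the channels of 2-colour slides, read here as log2, in 12 columns for 6 slides. Every fold value given here rests on that reading. The labels do not say how the authors made these ratios. Background subtraction, spot filters, normalisation, dyes, log base and ratio direction are not given in the sources used here. No intensities were used here. Signal over background is therefore unknown, and the number of slides limits the precision.

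Here 623 exact zeros among 41472 strong-scan values were set to missing and each column was median-centred. A loess trend (span 0.3) was fitted to each column over the mean of the slides of the other comparisons and subtracted. A slide's own noise thus does not enter the axis of its trend, though its values enter the fit. The scans of a slide were averaged and turned to mutant over wild type. Spots of 1 symbol were averaged. Of 3344 spots with 1 symbol, 3343 matched RefSeq R64 by gene ID. 387 spots with several symbols and 3181 without an entry were left out of tests. limma 3.58.1 in R 4.3.3 fitted all 6 slides with a coefficient per comparison and one for the mutant's channel. This left 2 residual degrees of freedom per gene, to which limma added 6.41 prior degrees of freedom from all genes. A gene's SE is therefore the same in each comparison. Simulated slides held 100 genes changed 2-fold and 100 changed 4-fold together. Of the former 72%, 72% and 63% were called in the 3 comparisons, in the order above, and of the latter 100%. With that many changed genes the adjusted p is less strict than here, where 2, 3 and 4 of 3127 genes passed. These shares are therefore not the power of these data.

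The members, lists and treatment of the values were chosen with earlier results of these data known. Named genes were the members, AFT1, AFT2, genes past the threshold, the reductive uptake genes, up to 3 chromosome neighbours on each side and the 3 genes nearest in profile. Genes marked as named after their values were seen, and some other genes of the lists, were added to these. The planned motif counts were not run here.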

Additional observations from a re-analysis of the deposited data

How the results depend on the processing

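FIT2 passed in 0 of 3 comparisons under 12 other treatments, and its ratios lay between -0.24 and 0.33 with slides left out in turn. Adjusted p-values in this paragraph are limma's, counts are genes past the threshold, and the causes of changed calls were not tested. On the values as deposited FIT3 minus FIT2 was -1.99 and ENB1 minus FIT2 -1.60, and they are a description, with no test. With the trend left in, 5 genes passed in rich medium. With the weak scans alone ENB1 in rich medium passed at -1.02 (adjusted p = 0.0212), and the counts were 10 in rich medium, 8 in aft1d, 1 for hydroxyurea against rich medium and 3 between strain pairs. With the strong scans alone FIT3 no longer passed in Y18daft2 in hydroxyurea (-1.84) or aft1d (-1.78), nor did ENB1 in aft1d (-1.42). The counts were then 1 in rich medium, 1 in Y18daft2 in hydroxyurea, 0 in aft1d and 0 between strain pairs. With zeros kept, ENB1 in rich medium passed at -1.13 (adjusted p = 0.0485) and the count there was 6. Without the channel coefficient it also passed at -1.13 (adjusted p = 0.0153), FIT3 in Y18daft2 in hydroxyurea did not at -1.66 (adjusted p = 0.0744), and the counts were 15 in rich medium and 2 between strain pairs. Fitting only the slides compared, which also leaves out the channel coefficient, gave 1, 7 and 64 genes in rich medium, Y18daft2 in hydroxyurea and aft1d. With the 12 columns fitted and slides as random blocks, FIT3 did not pass at -2.56, -1.66 and -1.73 (adjusted p = 0.0533, 0.9998 and 0.207), and the counts were 7 in rich medium, 1 for hydroxyurea against rich medium and 0 between strain pairs. If the columns had already been turned to mutant over wild type, FIT3 would be 0.24 in rich medium, -0.33 in Y18daft2 in hydroxyurea and 0.067 in aft1d, ENB1 0.040 in Y18daft2 in hydroxyurea and -0.074 in aft1d, and 0 genes would pass in any of these comparisons or between strain pairs. Testing all named genes gave the same values, since all were measured on all 6 slides.

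Both settings that follow were chosen after seeing the data. With the trend over all 6 slides ENB1 passed in rich medium at -1.14 (adjusted p = 0.000649) and between media at -1.11 (adjusted p = 0.0135), and the counts were 63, 5 and 40 in the comparisons, 23 between media and 11 between strain pairs. With a span of 0.5 the count in rich medium was 1, and FIT3 in Y18daft2 in hydroxyurea did not pass at -1.66 (adjusted p = 0.0553).

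Leaving out each slide in turn gave ENB1 in rich medium between -1.28 and -0.98, FIT3 in Y18daft2 in hydroxyurea between -2.14 and -1.18 and ENB1 there between -2.25 and -2.23. In aft1d FIT3 ran from -1.84 to -1.62 and ENB1 from -1.52 to -1.20. The counts ran from 4 to 30 in rich medium, 0 to 7 in Y18daft2 in hydroxyurea, 1 to 15 in aft1d, 0 to 32 between media and 0 to 5 between strain pairs. A slide left alone in its comparison was assumed to vary like the others. Member calls held in some such fits and ended in others, and neither they nor these counts are read as a result. FIT3 minus FIT2 ran from -2.21 to -1.93 and ENB1 minus FIT2 from -1.80 to -1.49. FIT3 between media ran from 0.42 to 1.37. No paired analysis was possible because the labels give no replicate numbers that pair slides across comparisons. The slide numbers used here coincide with the channel of the mutant, so the channel coefficient is the term that a block on them would be, and the values without it are given above.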

Other observations

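FIT2 and FIT3 belong to the wall proteins with a GPI anchor. Of 18 other genes listed with them, among them the secreted wall protein gene YGP1, 10 were measured. In rich medium SED1, a major wall glycoprotein, was higher in Y18daft2 on both slides, at 1.57 and 1.49. Its mean of 1.53 (SE 0.179, n = 2 slides) is 2.89-fold above CM3260 (adjusted p = 0.031, limma), while FIT3 was 5.89-fold lower on the same slides. In rich medium no higher gene passed with the strong scans alone, with only the slides compared or with a span of 0.5. The SED1 call thus ended under these settings. SED1 read 0.02 in Y18daft2 in hydroxyurea and 0.52 in aft1d and passed in neither. The other 9 genes of the list did not pass in any comparison, which is near the background of 0.064% to 0.128% of all genes. The list medians were 0.11 in rich medium, 0.08 in Y18daft2 in hydroxyurea and 0.22 in aft1d.

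Of 16 mating-type and strain marker genes 10 were measured and 0 passed in any comparison, with medians of -0.20, -0.13 and 0.03 in the same order. This count too is near the background of 0.064% to 0.128% of all genes. Below 0 were 8, 10 and 3 of the 10, against 49.6%, 51.9% and 52.2% of all genes. The lowest, named after its values were seen, was the pheromone gene MF(ALPHA)2, at -0.62 and -1.34 on the slides of rich medium (mean -0.98, SE 0.31, adjusted p = 0.626, limma). It read -0.38 in Y18daft2 in hydroxyurea and 0.28 in aft1d. Set beside it in rich medium, the other alpha-cell markers SAG1, STE3 and MF(ALPHA)1 read -0.79, -0.29 and 0.14. The part of strain differences in the FIT3 and ENB1 ratios was not tested.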
